A study of Mus musculus with 12 samples.

Results

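The NRF2 antioxidant and glutathione genes examined here are Nfe2l2, Keap1, Gclc, Gclm, Nqo1, Srxn1, Txnrd1, Sod1, Sod2 and Gpx1. They were taken by symbol from the deposited expression table, and all 10 were found among its 17432 genes. The livers came from wild-type (WT) C57BL/6J male mice 8 to 10 weeks of age, 6 per group. Mice of both groups ate by day and fasted by night for 3 days, were acclimated to the treadmill, and on the next day were refed and then had their food removed. The Exercise group then ran for 3 h at 14 m/min, the Sedentary group did not run, and livers of both groups were taken at 1 time point, when the run ended. The comparison therefore asks how a single bout of aerobic exercise after a meal changed these transcripts, with feeding and food removal shared by both groups.

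Cells meet oxidants and reactive chemicals with a program driven by the transcription factor NRF2, which Nfe2l2 encodes. KEAP1, a cysteine-rich adaptor of a CUL3 ubiquitin ligase, sends NRF2 for degradation until its cysteines are modified, after which NRF2 pairs with a small MAF protein and binds antioxidant response elements in its target genes, where BACH1 and BACH2 compete for the same small MAF partners. In the liver, which makes glutathione for its own use and for export, the targets include the enzymes of glutathione synthesis, the thioredoxin and sulfiredoxin system and NQO1. NRF2 is controlled largely through its protein, which messenger RNA does not report.

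Of the 10 genes, Srxn1 and Txnrd1 were lower after exercise, none was higher, and 8 did not pass the threshold (an adjusted p under 0.05 from the quasi-likelihood test of edgeR, adjusted by Benjamini-Hochberg over all 12344 genes tested). Srxn1 encodes sulfiredoxin, which repairs over-oxidised peroxiredoxins, and was 31.9% lower. Txnrd1 encodes the cytosolic thioredoxin reductase and was 16.2% lower. The background was high in this comparison: 42.4% of all tested genes passed the same threshold, 21.3% as lower and 21.1% as higher. The 2 calls among 10 members were thus a smaller share than that of all genes in this fit, but not under every scaling. With counts scaled by library size alone, 5 of the 10 were called, against 44.6% of all tested genes. The members also moved little, with a median absolute log2 fold change of 0.102 against 0.21 over all tested genes. The median signed change was -0.076 against -0.0028 over all tested genes, and 7 of the 10 lay below 0, as did 50.4% of all tested genes.

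**Figure D1:**
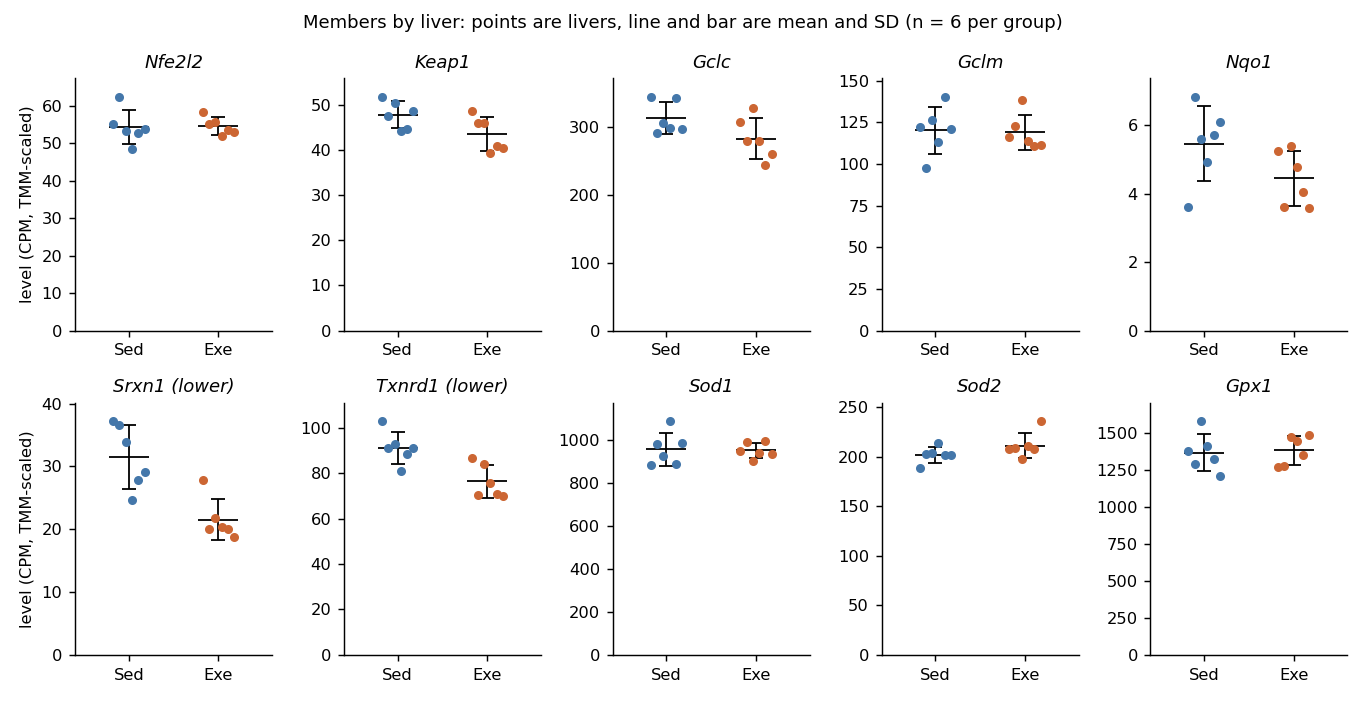
Level of each of the 10 genes in each liver, in CPM (counts scaled to the library size and by TMM factors), for Sedentary (Sed) and Exercise (Exe). Points are livers, the horizontal line is the mean and the bar is the SD (n = 6 per group). Srxn1 and Txnrd1, marked as lower, shift downward as groups while some of their livers still overlap.

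All 10 genes passed the filter on low counts. The lowest total was 18745379 counts and the highest 19324461, so that Nqo1, the member with the fewest counts, still had 65 to 143 per library. For the cardiac myosin gene Myh6, Exercise replicate 1 stood apart, with 106 counts where the other 5 exercised livers had 0 and sedentary livers 85.2 to 212. Values without this liver are given where it changes a call of the 10 genes or their ratios, and for the 2 genes that fell. The Myh6 counts thus went with the group except in this liver. Their source was not tested, and a difference in it between the groups cannot be told apart from exercise. Hepatocyte markers were abundant in both groups (summed level 118000 to 160000 CPM sedentary, 149000 to 169000 CPM exercised) and 5 of 10 were called higher. Most of this sum was Alb, with a mean of 100400 CPM sedentary and 118800 CPM exercised. Among these 5 calls, Alb lost its call in 7 of 23 other fits and F2 in 9. Of 45 markers of 7 other cell groups, none was at 0 in all livers, 35 could be tested, and 3 were higher and 3 lower. In bulk tissue, fewer cells of a type and less RNA per cell cannot be told apart.

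The promoter letters are shown first, because NRF2 acts through short sites near its target genes. RefSeq promoter windows (build GRCm38.p6, 250 bases before to 50 after a start) were given for 9 of the 10 genes. The core of the antioxidant response element, TGACNNNGC, read on both strands, was in the windows of 5 of the 9 (Nfe2l2, Gclm, Srxn1, Txnrd1 and Sod1) and of 13.99% of all 27025 genes with a window. Counted by window, it was in 5 of 11 member windows and in 12.4% of all 32817 windows of this length. A near relative, TGAGNNNGC, was added after the windows had been read, and was in the Srxn1 window only among members and in 17.6% of all windows. Below are the sites and the upstream stretches of the 2 genes that fell, with either motif in capitals, written 5′ to 3′ on the strand of the gene.
Srxn1 upstream, chr2:152105274-152105515, plus strand: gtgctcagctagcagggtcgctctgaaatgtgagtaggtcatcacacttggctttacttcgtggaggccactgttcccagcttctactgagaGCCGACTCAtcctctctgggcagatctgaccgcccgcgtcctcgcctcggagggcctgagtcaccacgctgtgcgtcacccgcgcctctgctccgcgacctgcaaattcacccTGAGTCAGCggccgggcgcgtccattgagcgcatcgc
Srxn1 after the start, chr2:152105542-152105571, plus strand: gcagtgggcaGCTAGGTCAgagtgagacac
Txnrd1 upstream of an internal start, chr10:82859009-82859178, plus strand: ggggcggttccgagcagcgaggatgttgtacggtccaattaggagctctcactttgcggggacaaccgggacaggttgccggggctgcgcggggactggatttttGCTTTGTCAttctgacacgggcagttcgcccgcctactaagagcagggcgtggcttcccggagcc
Gclm, chr3:122245413-122245442, plus strand: gctcccgggcGCACCGTCAactctcacgag
Nfe2l2, chr2:75704884-75704913, minus strand: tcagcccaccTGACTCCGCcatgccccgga
Sod1, chr16:90220696-90220725, plus strand: gccaaggtggGCGTGGTCAgactcaggcct

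The Srxn1 upstream stretch holds both TGAGNNNGC matches, the nearer of them 45 bases before the start, where it shares bases with TGAGTCA, the letters of an AP-1 type site. Its single TGACNNNGC match begins at base 29 counted from the start, inside the first exon. The Txnrd1 match lies 92 bases before the second of 3 RefSeq starts, within the gene body of the longest transcript and outside annotated exons. Gclm (134 bases before the start), Nfe2l2 (240 bases) and Sod1 (56 bases) hold the same core as Srxn1 and Txnrd1 but did not pass the threshold. Keap1, Nqo1, Sod2 and Gpx1 have no match in this window, which says nothing of sites farther away, and did not pass either. Whether the core bears on the changes was not tested.

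Among the regulators, Nfe2l2 itself (gene ID 18024, chromosome 2, 75675513 to 75704641, minus strand, positions on GRCm38 from GENCODE here and below) did not pass the threshold. Its lowest, median and highest values were 48.5, 53.5 and 62.3 CPM in sedentary livers and 52.0, 54.3 and 58.3 CPM in exercised livers. The exercised range lay within the sedentary one. The log2 fold change was 0.0071 with a 95% interval from -0.12 to 0.13 (adjusted p = 0.936 from edgeR's test), which corresponds to a change between -7.78% and 9.52%.

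Keap1 (gene ID 50868, chromosome 9, 21229730 to 21239361, minus strand), the gene of the NRF2 adaptor, ran at 44.3, 48.1 and 51.8 CPM (lowest, median, highest) in sedentary livers. In exercised livers it ran at 39.3, 43.4 and 48.6 CPM. The groups overlapped, with 5 of 6 exercised livers below the sedentary median. The log2 fold change of -0.14 (SE 0.064) had an adjusted p of 0.0935 from edgeR's test, and an exact two-sided permutation test over livers gave p = 0.0606, where 0.00216 is the smallest p that 6 against 6 allow. Its call depended on the scaling: with library size alone, which moved the median of all genes to -0.098, Keap1 was at -0.24 (adjusted p = 0.0114 from edgeR's test), and without Exercise replicate 1 at -0.17 (adjusted p = 0.0471 from edgeR's test). The antisense gene Gm16754 overlaps Keap1, and whether reads were counted by strand is not given in the sources used here.

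Within a liver, the log2 ratio of Nfe2l2 to Keap1 counts does not depend on the scaling. It ran from 0.077 to 0.39 (median 0.14) in sedentary and from 0.26 to 0.41 (median 0.33) in exercised livers. The mean difference was 0.15 (exact permutation p = 0.0238, or 0.0714 after Benjamini-Hochberg adjustment over 3 ratios). The ratio thus missed the threshold, although it passed without Sedentary replicate 2 (0.19) or without Exercise replicate 1 (0.16).

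Several genes that share NRF2's binding sites and partners changed. Of the 12 other tested genes in the list of KEAP1-NRF2 regulators, 6 were higher and 2 lower. For this list and those below, the shares over all tested genes were 21.1% higher and 21.3% lower. Bach1, a repressor that competes with NRF2, ran from 16.4 to 21.5 CPM (median 18.4) in sedentary and from 28.5 to 36.5 CPM (median 31.0) in exercised livers. It rose by 0.76 on the log2 scale (SE 0.076, adjusted p = 5.82e-07 from edgeR's test) with no overlap between the groups, a separation seen in 22.3% of all tested genes. Its lymphoid relative Bach2 fell by 0.54 on the log2 scale from a low level, 4.60 to 8.05 CPM in sedentary and 2.77 to 6.14 CPM in exercised livers (adjusted p = 0.0138 from edgeR's test), with overlap.

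The small MAF genes, whose proteins pair with both NRF2 and BACH1, all rose. Mafg ran from 83.1 to 103 CPM (median 95.8) in sedentary and from 125 to 148 CPM (median 135) in exercised livers, and rose by 0.52 on the log2 scale (SE 0.060, adjusted p = 2.79e-06 from edgeR's test). Maff ran from 1.00 to 2.61 CPM (median 1.82) in sedentary and from 5.38 to 13.2 CPM (median 8.55) in exercised livers, a log2 fold change of 2.27 (SE 0.23, adjusted p = 3.38e-06 from edgeR's test). Mafk rose by 0.42 on the same log2 scale. Each exercised liver lay above each sedentary liver for all 3 genes. With limma on log2(FPKM + 1) the changes were smaller but still called, at 0.25 for Mafg, 1.43 for Maff and 0.25 for Mafk, and Bach2 was at -0.25. Cul3, which encodes the scaffold of the KEAP1 ligase, was 0.24 higher on the log2 scale (adjusted p = 0.00226 from edgeR's test), and Gsk3b, whose kinase marks NRF2 for another ligase, was 0.32 higher (adjusted p = 0.00294). Both of these calls were lost with limma on FPKM values. Dpp3, whose protein binds KEAP1, was 0.21 lower (adjusted p = 0.0136 from edgeR's test), and Sqstm1, another KEAP1 binding partner, ran at 284 ± 30.3 and 316 ± 34.2 CPM (SD, n = 6 each) without passing (adjusted p = 0.138).

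**Figure D2:**
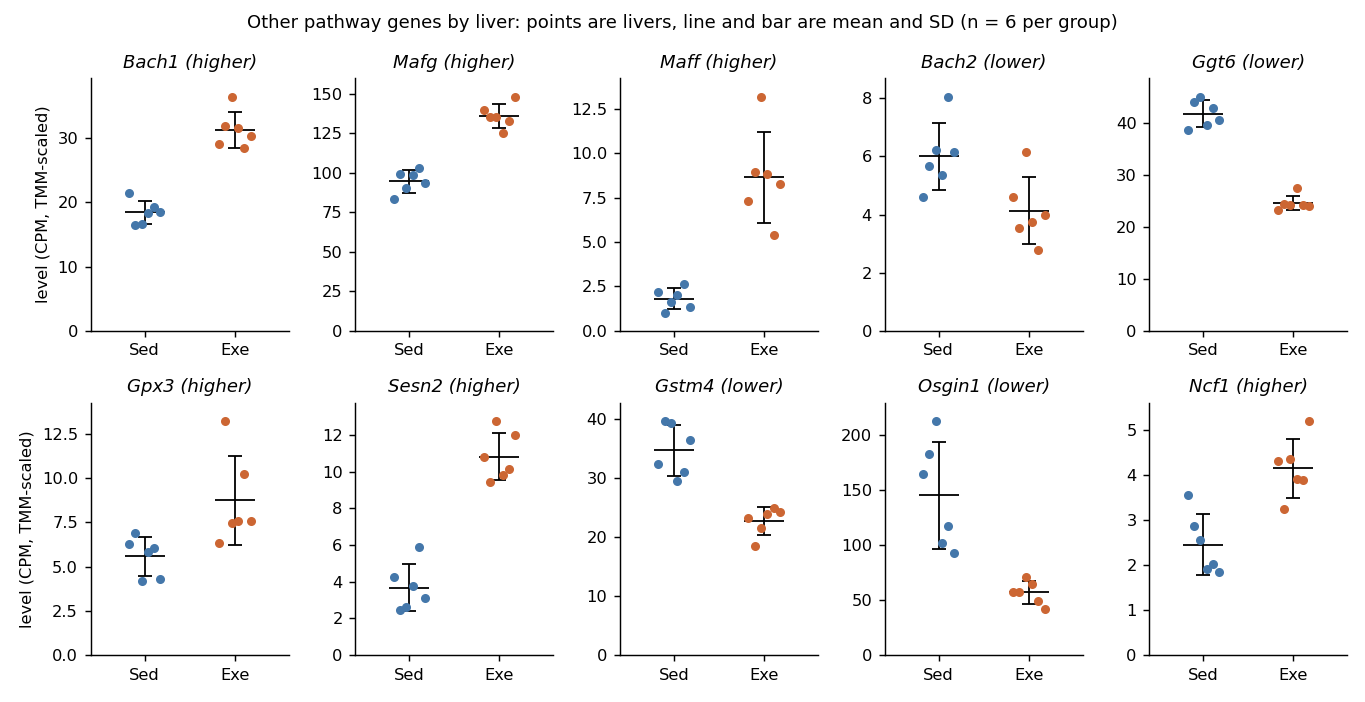
Level in each liver (CPM, TMM-scaled) of the 10 other pathway genes that met the naming rule, an adjusted p under 0.05 with an absolute log2 fold change of at least 0.5. Points are livers, lines and bars the mean and SD (n = 6 per group). Bach1, Mafg, Maff and Sesn2 are higher and Ggt6, Gstm4 and Osgin1 lower without overlap, and Bach2, Gpx3 and Ncf1 overlap between the groups.

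Glutathione synthesis starts with glutamate-cysteine ligase, made of a catalytic subunit (Gclc) and a modifier subunit (Gclm). Gclc (gene ID 14629, chromosome 9, 77754535 to 77794485, plus strand) ran at 292, 303 and 345 CPM (lowest, median, highest) in sedentary livers and 244, 280 and 328 CPM in exercised livers. The ranges overlapped, and 4 of 6 exercised livers were below the sedentary median. Gclc changed by -0.15 on the log2 scale (SE 0.073), which did not pass (adjusted p = 0.114 from edgeR's test). With library size alone it was -0.24 and passed (adjusted p = 0.00557 from edgeR's test), as it did without Exercise replicate 3 (-0.19, adjusted p = 0.0414).

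Gclm (gene ID 14630, chromosome 3, 122245557 to 122270732, plus strand) did not pass (adjusted p = 0.901 from edgeR's test), with 97.7 to 140 CPM in sedentary livers (120 ± 14.1, SD, n = 6) and 111 to 138 CPM in exercised livers (119 ± 10.4, SD, n = 6). Its log2 fold change was -0.0145 with a 95% interval from -0.18 to 0.15. The pseudogene Gm6061 and the opposite-strand gene Gm17494 overlap Gclm. The log2 ratio of Gclc to Gclm within a liver averaged 1.39 ± 0.13 sedentary and 1.25 ± 0.093 exercised (SD, n = 6 each). The difference of -0.14 did not pass (exact permutation p = 0.0584, adjusted p = 0.0877 over 3 ratios), and without Exercise replicate 1 it was -0.17 and passed.

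Among 13 other tested genes for making, recycling and breaking down glutathione, 1 was higher and 3 were lower. Ggt6, which belongs to the gamma-glutamyltransferase family, fell by 0.77 on the log2 scale (SE 0.059, adjusted p = 4.82e-08 from edgeR's test), with 38.7 to 45.1 CPM in sedentary and 23.3 to 27.4 CPM in exercised livers. The groups did not overlap. The other calls, singled out after their values were seen, were Slc25a39, a carrier of glutathione into mitochondria (-0.19), Oplah, the 5-oxoprolinase (-0.16), and Slc3a2, the heavy chain of amino acid exchangers (0.30). Oplah lost its call in 9 of 23 other fits, among them the fit without Exercise replicate 1. Gss, which adds glycine, and Gsr, which regenerates reduced glutathione, did not pass (adjusted p = 0.358 and 0.850 from edgeR's test), and the cystine transporter gene Slc7a11 had too few counts to test.

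Nqo1 (gene ID 18104, chromosome 8, 107388225 to 107403206, minus strand), a quinone reductase often used as a readout of NRF2, had the fewest counts of the 10. Sedentary livers had 3.60, 5.66 and 6.83 CPM (lowest, median, highest) and exercised livers 3.59, 4.42 and 5.39 CPM. All 6 exercised livers were below the sedentary median, yet the lowest sedentary liver, replicate 1, lay with the lowest exercised ones. A log2 fold change of -0.30 (SE 0.15) did not pass (adjusted p = 0.111 from edgeR's test, exact permutation p = 0.117). It passed with library size alone (-0.40, adjusted p = 0.0317 from edgeR's test) and without Sedentary replicate 1 (-0.40, adjusted p = 0.0221).

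Of 30 other tested NRF2 detoxification and transport targets, 8 were lower and none was higher, where 21.3% of all tested genes were lower and 21.1% higher. Osgin1, an oxidative stress induced growth inhibitor, fell by 1.36 on the log2 scale (SE 0.22, adjusted p = 0.000615 from edgeR's test). Its sedentary values spread widely from 92.2 to 212 CPM, and its exercised values lay from 42.1 to 70.6 CPM with no overlap. Gstm4, a glutathione S-transferase, fell by 0.61 (SE 0.086, adjusted p = 2.31e-05 from edgeR's test), with 29.5 to 39.7 CPM in sedentary and 18.5 to 24.9 CPM in exercised livers, again with no overlap. The other lower genes, singled out after their values were seen, were Gstm2 (-0.27), Gstm3 (-0.43), Htatip2 (-0.32), Aox1 (-0.16), Ces1g (-0.20) and Ftl1 (-0.18). Of the 23 other fits, Aox1 lost its call in 11, Ftl1 in 6 and Ces1g in 3. Close paralogs such as those of the Gstm family can share reads, so their separate values are uncertain. Hmox1, the inducible heme oxygenase, was at 10.0 ± 2.46 and 11.8 ± 2.33 CPM (SD, n = 6 each), and the abundant transferase Gsta3 at 2235 ± 140 and 2276 ± 91.8 CPM (SD, n = 6 each), neither passing.

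Srxn1 (gene ID 76650, chromosome 2, 152105516 to 152111376, plus strand) had the smallest p of the 10 genes. Sedentary livers ran at 37.2, 36.6, 33.9, 24.7, 27.8 and 29.2 CPM (replicates 1 to 6), and exercised livers at 27.8, 20.0, 21.8, 20.4, 20.0 and 18.8 CPM. Exercise replicate 1 lay among the lower sedentary livers, and the other 5 exercised livers lay below every sedentary liver. Srxn1 thus fell by 0.55 on the log2 scale (SE 0.11, 95% interval -0.79 to -0.32, adjusted p = 0.000898 from edgeR's test), and the exact permutation test gave p = 0.00649. Of all tested genes, 15.2% moved by at least as much in either direction.

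Txnrd1 (gene ID 50493, chromosome 10, 82833951 to 82897712, plus strand) ran at 102.8, 90.9, 92.8, 81.0, 88.5 and 91.1 CPM in sedentary livers (replicates 1 to 6). Exercised livers ran at 86.9, 70.6, 84.3, 75.5, 71.1 and 70.2 CPM. Exercise replicates 1 and 3 lay above the lowest sedentary liver and the other 4 below it. The log2 fold change was -0.26 (SE 0.069, 95% interval -0.40 to -0.11, adjusted p = 0.00613 from edgeR's test), with an exact permutation p of 0.00866. Eid3, on the same strand within Txnrd1, had at most 3 counts, and 2 opposite-strand genes also lie within it. Without Exercise replicate 1, Srxn1 was at -0.64 and Txnrd1 at -0.29.

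**Figure D3:**
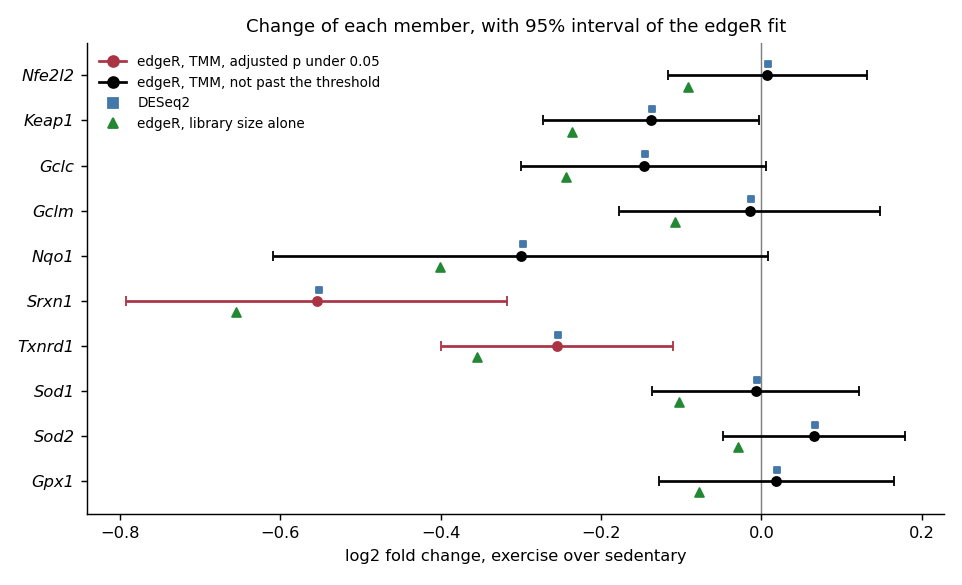
Log2 fold change of each gene, exercise over sedentary, from edgeR with TMM scaling (circles with 95% intervals), from DESeq2 (squares) and from edgeR with library size alone (triangles). Srxn1 (-0.55) and Txnrd1 (-0.26) have intervals below 0 and passed the threshold. The interval of Keap1 also lies below 0, but its adjusted p did not pass. Library size alone shifts each gene to the left.

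The 21 other tested genes of the thioredoxin, peroxiredoxin and glutaredoxin system mostly did not pass, with 2 higher, 3 lower and 16 not called. Sesn2, encoding a stress-induced sestrin, rose by 1.56 on the log2 scale (SE 0.17, adjusted p = 3.67e-06 from edgeR's test), with 2.43 to 5.87 CPM in sedentary and 9.45 to 12.8 CPM in exercised livers and no overlap. The other 4 calls, singled out after their values were seen, were Txnip (0.33), an inhibitor of thioredoxin, the mitochondrial reductase Txnrd2 (-0.22) and the methionine sulfoxide reductases Msrb1 (-0.17) and Msrb2 (-0.47). Txnrd2 and Msrb1 each lost the call in 5 of 23 other fits, including the fit without Exercise replicate 1, and Txnip in 3. The substrate of TXNRD1, Txn1, was at 162 ± 8.70 and 161 ± 6.39 CPM, and the peroxiredoxin Prdx1 at 631 ± 16.9 and 620 ± 25.3 CPM (SD, n = 6 each). Prdx1 to Prdx6 all had adjusted p values of at least 0.124 from edgeR's test.

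The superoxide dismutases convert superoxide to hydrogen peroxide, Sod1 mainly in the cytosol and Sod2 in mitochondria. Sod1 (gene ID 20655, chromosome 16, 90220754 to 90226329, plus strand) ran from 883 to 1088 CPM in sedentary and from 904 to 998 CPM in exercised livers. The exercised range lay inside the sedentary one, and the log2 fold change was -0.0073 with a 95% interval from -0.14 to 0.12. Its 3′ end overlaps Scaf4 on the opposite strand, which did not pass either (0.033, adjusted p = 0.692 from edgeR's test).

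Sod2 (gene ID 20656, chromosome 17, 13006846 to 13040063, plus strand) ran from 188 to 213 CPM (median 202) in sedentary and from 197 to 235 CPM (median 208) in exercised livers. Its log2 fold change of 0.066 (95% interval -0.048 to 0.18) did not pass (adjusted p = 0.353 from edgeR's test). It was the only member with counts that were not whole numbers. The log2 ratio of Sod1 to Sod2 within a liver differed by -0.069 (exact permutation p = 0.216, also 0.216 after adjustment). Of 3 other genes in that list, Ccs, the copper chaperone of SOD1, was 0.24 lower (adjusted p = 0.00113 from edgeR's test) without overlap. Catalase (Cat) at 2326 ± 118 and 2290 ± 124 CPM and extracellular Sod3 did not pass.

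Gpx1 (gene ID 14775, chromosome 9, 108338903 to 108340343, plus strand), the selenium-dependent glutathione peroxidase of the cytosol, ran from 1208 to 1575 CPM (1363 ± 125, SD, n = 6) in sedentary and from 1268 to 1482 CPM (1380 ± 96.8, SD, n = 6) in exercised livers. Each group spanned the mean of the other, and the log2 fold change was 0.0186 with a 95% interval from -0.13 to 0.17 (adjusted p = 0.858 from edgeR's test). Gpx4, which reduces lipid hydroperoxides, did not pass either (235 ± 16.5 and 236 ± 17.1 CPM, SD, n = 6 each), and Gpx3, the secreted form, rose by 0.65 on the log2 scale (SE 0.18, adjusted p = 0.00864 from edgeR's test), with 4.18 to 6.87 CPM in sedentary and 6.35 to 13.2 CPM in exercised livers, which overlap.

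GPX1 and TXNRD1 carry selenocysteine, and of 10 tested genes for its synthesis and supply 1 was higher and 3 were lower. These were, named after their values were seen, Sephs2 (0.19), which makes selenophosphate, and Sepsecs (-0.42), Scly (-0.24) and Eefsec (-0.18), which form, recycle and deliver selenocysteine. Sephs2 lost its call in 3 of 23 other fits, those with library size alone and limma on FPKM. Of 11 tested genes that supply NADPH, the reductant of both the glutathione and thioredoxin systems, 3 were lower and none higher: Idh1 (-0.33), Me1 (-0.46) and Pgd (-0.41). Over all tested genes, 21.3% were lower and 21.1% higher. Me1 lost its call in 12 of 23 other fits, including limma-voom and the replicate block, and Pgd in 7, while Idh1 kept its call in all 23. Only Idh1 of these had no overlap, with 373 ± 13.9 CPM sedentary and 296 ± 9.55 CPM exercised (SD, n = 6 each, adjusted p = 4.27e-05 from edgeR's test). Among 12 tested sources of superoxide and peroxide, Ncf1, a subunit of the phagocyte oxidase, rose by 0.75 on the log2 scale, with 1.84 to 3.55 CPM in sedentary and 3.24 to 5.19 CPM in exercised livers, which overlap (adjusted p = 0.00119 from edgeR's test, and at 0.36 with limma on log2(FPKM + 1)) and Maoa was 0.37 higher.

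**Figure D4:**
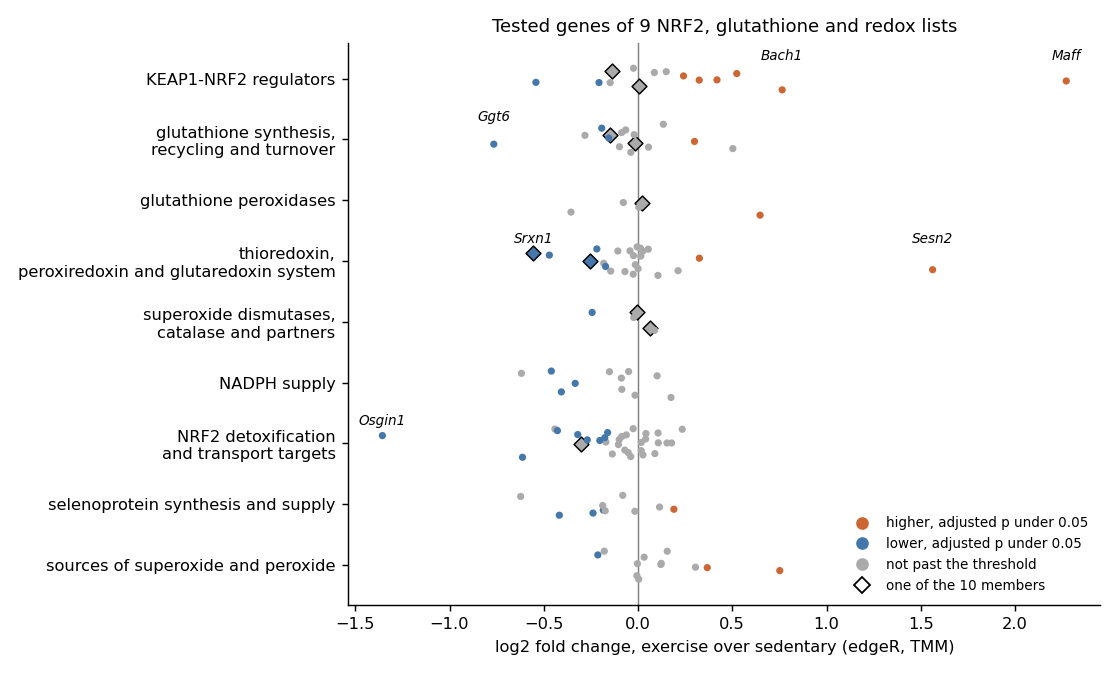
Log2 fold change (exercise over sedentary, edgeR with TMM scaling) of each tested gene in 9 lists, with genes past the threshold in color, gray for the rest and diamonds for the 10 members. The regulators spread to the right, with Bach1 and Maff, and the detoxification targets have calls only on the left, with Osgin1 lowest. Over all tested genes, 21.3% were called lower and 21.1% higher.

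Over the 9 lists together, 37 of 116 tested genes other than the members passed (31.9%, against 42.4% of all tested genes), 13 as higher and 24 as lower, and their median log2 fold change was -0.026. In 23 other fits, 24 of the 37 passed in every one, 9 higher and 15 lower. Among the 13 that lost the call in at least 1 fit were Cul3, Gsk3b, Oplah, Txnrd2, Txnip, Msrb1, Pgd, Me1, Aox1, Ces1g, Ftl1 and Sephs2. Markers of other cells were set beside these counts: of 7 endothelial markers 3 were higher and 1 lower (summed level 131 to 179 CPM sedentary, 151 to 230 CPM exercised), and of 7 stellate cell and fibroblast markers 2 were lower (167 to 218 and 153 to 227 CPM). None of 8 Kupffer cell and macrophage markers was called (68.8 to 118 and 80.1 to 125 CPM), nor were those of cholangiocytes (31.8 to 42.2 and 34.3 to 41.9 CPM), lymphocytes (1.44 to 3.05 and 1.04 to 2.55 CPM), neutrophils (3.21 to 4.97 and 3.45 to 5.56 CPM) or erythroid cells (416 to 684 and 414 to 527 CPM). Their part in the results was not tested.

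On the FPKM scale, which accounts for transcript length, the 10 genes spanned a wide range of levels. Sod1 was highest with a median of 1679 FPKM in sedentary and 1551 in exercised livers, and Gpx1 followed with 1435 and 1352, a pair whose ranges overlapped. Gclc came next with 101 and 88.4 FPKM, apart from its neighbours in both groups. Gclm (63.1 and 54.8) and Sod2 (55.3 and 54.0) were not separated, nor were Txnrd1 (28.6 and 21.7) and Nfe2l2 (22.6 and 21.2). Keap1 (15.7 and 12.7) overlapped with Srxn1 (11.8 and 7.19) in sedentary livers and was apart from it in exercised livers. Nqo1 was lowest at 3.74 and 2.87 FPKM, yet above 43.7% of the tested genes.

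**Figure D5:**
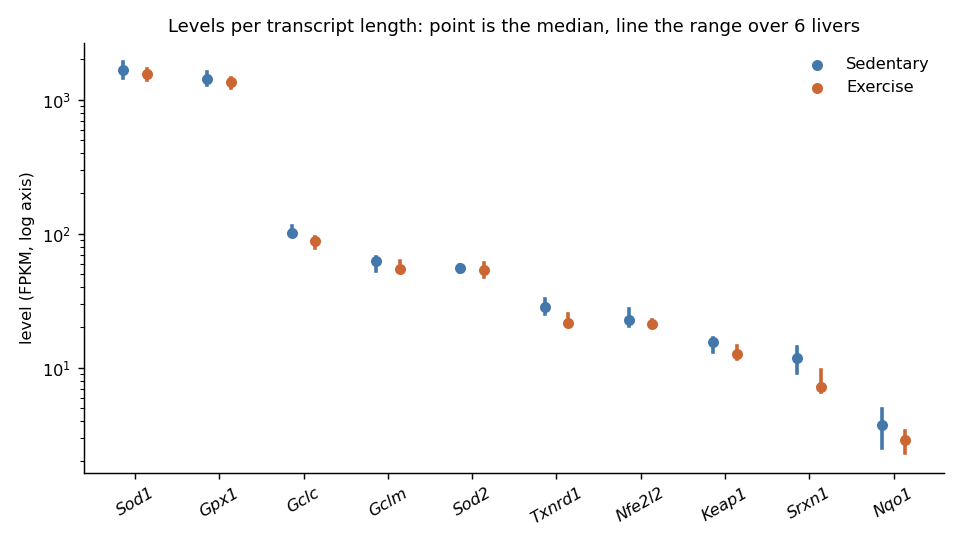
Level of the 10 genes in FPKM on a log axis, ordered by level, for sedentary and exercised livers. Points are medians and lines the range over 6 livers. Sod1 and Gpx1 stand far above the rest, with no liver below 1229 FPKM, and Nqo1 lies lowest.

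Likeness of pattern was measured as the mean absolute difference, over the 12 livers, between log2(CPM + 0.5) values centred on each gene's own mean, among 11537 genes. The 3 genes nearest to Nfe2l2 were Cd59a, Azin1 and Rab1a (0.0482 to 0.0504, where the median gene was at 0.167), all without a call. Among the genes nearest to Srxn1 were Ints10 and Mppe1 (0.0861 and 0.0863, where the median gene was at 0.321), both called lower. The measure used the same 12 livers as the test, so the calls of near genes follow from it and are no separate result. Among members, Txnrd1 was the one most like Srxn1, at rank 268 (0.154), followed by Nqo1 at rank 994 (0.197). Nfe2l2 stood at rank 3722 (0.276).

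In TMM-scaled CPM, the same livers were high or low for several of these genes. Sedentary replicate 1 was the highest sedentary liver for Keap1, Gclc, Srxn1 and Txnrd1, and the lowest for Nqo1, Sod1 and Sod2. Exercise replicate 1 was the highest exercised liver for Nfe2l2, Keap1, Srxn1 and Txnrd1, and Exercise replicate 3 for Gclc, Gclm and Nqo1. Some of these places depended on the scaling. In FPKM, Sedentary replicate 2 was highest for Srxn1, and Sedentary replicate 5 was lowest for Sod1 and Sod2. Exercise replicate 1 was highest for Nqo1 in FPKM, and the other places were the same.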

How the data were processed

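RNA-Seq was performed by the authors on 12 livers, 6 per group, grouped here by the sample labels. The authors deposited estimated counts per gene, not scaled between libraries, of which 31.3% were not whole, and FPKM values, which the authors scaled for transcript length and depth. The submitters' processing notes name Bowtie2 2.3.4.3, RSEM 1.3.1 and mm10. The annotation and strand setting are not given in the sources used here. None of 66 library pairs was identical. The tests weigh the difference between the groups against the spread between livers, and the labels do not say whether cages or days differed.

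The main test was the robust quasi-likelihood test of edgeR 4.0.16 (R 4.3.3) on counts rounded to whole numbers and scaled by TMM. Low genes were filtered by filterByExpr (minimum count 10), and p-values of 12344 genes were adjusted by Benjamini-Hochberg and called under 0.05. The biological coefficient of variation was 11.3%. Single values were also compared on log2(CPM + 0.5) with an exact two-sided permutation test. limma 3.58.1 and DESeq2 1.42.0 served as alternatives, beside other scalings, filters, a replicate block and leaving out each liver. Of the tests, only that of edgeR was tried on simulated counts, in which far fewer genes changed than were called here. The 10 genes, the gene lists and the tests were chosen with earlier results of these data known. Named were the 10 genes, genes of each list past the threshold with an absolute log2 fold change of at least 0.5 and a mean CPM of at least 1 (at most the 5 with the smallest p), and the 3 genes most like Nfe2l2 and Srxn1. Genes named outside this rule, single values given for genes that did not pass among them, were picked after their values were seen. Some genes that meet the rule or a count are not reported here. Positions are from GENCODE on GRCm38, and promoter windows from RefSeq. Python 3.11.15 with pandas 2.3.3 and scipy 1.17.1 was used for the rest.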

Additional observations from a re-analysis of the deposited data

Results flagged for a closer look

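Sod2 in Exercise replicate 6 lay at 235 CPM, far from the other exercised livers, of which the next was at 211 CPM and the lowest at 197 CPM (gap over range 0.632). It was the only far liver in the 20 groups of 6 livers checked, 10 genes in each group of mice, where chance flags about 1 in 20. Without this liver the log2 fold change of Sod2 was 0.039, against 0.066 with it.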

How the results depend on the processing

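Srxn1 and Txnrd1 passed the threshold in every fit, between -0.66 and -0.55 and between -0.35 and -0.25 on the log2 scale over 11 alternatives, and between -0.64 and -0.50 and between -0.29 and -0.22 when each liver was left out in turn. The number of the 10 genes past the threshold was 2 with RLE size factors, both other filters, unrounded counts, DESeq2, limma-voom, the replicate block and a threshold of 0.01. It was 3 with upper quartile factors (Keap1 in addition, at -0.16), and 5, all lower (Keap1, Gclc and Nqo1 in addition), with library size alone and with limma on log2(FPKM + 0.1) or log2(FPKM + 1). These last 3 settings moved the median of all genes to -0.098, -0.093 and -0.066 and the share of calls that were higher from 49.8% to 32.1%, 31.4% and 31.6%. In these settings 44.6%, 43.9% and 44.0% of all tested genes passed, so the 5 calls were not a smaller share than that of all genes. Leaving out each liver gave 2 to 3 genes, with Nqo1 added without Sedentary replicate 1, Keap1 without Exercise replicate 1 and Gclc without Exercise replicate 3.

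Genes near 0 changed sign with the scaling. Nfe2l2 was at -0.0916 with library size alone, -0.0149 with upper quartile factors, and -0.0854 and -0.0822 with limma on FPKM. Gpx1 was at -0.0781, -0.002, -0.074 and -0.074 under the same settings in that order. Sod2 was at -0.0294 with library size alone and at -0.0312 and -0.0306 with limma on FPKM. With each liver left out, Nfe2l2 ranged from -0.0233 to 0.0502, Gclm from -0.0676 to 0.0392, Sod1 from -0.03 to 0.0325 and Gpx1 from -0.0137 to 0.064. The ratio of Nfe2l2 to Keap1 ranged from 0.13 to 0.19 and that of Gclc to Gclm from -0.17 to -0.10. The cause of these shifts was not tested. Of the other pathway genes, 37 passed, and 23 did so at a threshold of 0.01, which is stricter by construction. Settings for these single genes, of which 24 passed in every one of 23, were added after seeing the data.

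The labels number the livers of both groups alike but do not say that these numbers pair them. Deviations of same-numbered livers correlated by -0.10 to 0.16, over 0.1 in 2 of 6 pairs. Of 12 livers, 3 correlated best with their own number, both livers of number 2 among them. With 6 pairs, these correlations cannot settle whether the numbers pair the livers. The replicate block moved the count of all genes past the threshold from 5229 to 4956.

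Genes with few counts, such as Nqo1, Maff, Bach2, Sesn2, Ncf1 and Gpx3, had wider errors (SE 0.15 to 0.23). Strand and shared reads could not be checked.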
